A study of Mus musculus with 11 samples.

Results

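The 10 genes described here, Ramp2, Cldn5, Tie1, Tek, Cdh5, Pecam1, Kdr, Esam, Emcn and Eng, are best known from the lining of blood vessels and were read in hematopoietic stem cells (HSC). They were taken by symbol from the 37991 gene IDs of the count table, and all 10 had an ID. They were chosen by name with the counts of these same libraries, and their differences between genotypes, already known, so those differences are given as a description. Calls and p-values from the fits across all genes are not independent of that choice where they are given for these 10. The lists of genes that act with them and of marker genes were also chosen with earlier results of these data known. Calls in those lists are therefore not independent of the choice either. HSC were sorted from the bone marrow of 8-week-old C57BL/6 mice as cells without the lineage antigens CD2, CD3, CD4, CD8, B220, Gr1, Mac1 and Ter119, negative for CD48 and CD135 and positive for c-Kit, Sca1 and CD150. No antibody against a vascular junction protein was named for this gate. Aliquots of 1000 cells gave amplified cDNA, Nextera XT libraries and reads counted per gene. There were 4 control (Ctrl), 4 NA10hd and 3 NV libraries.

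Ctrl mice were wild type by their labels and littermates by the methods, which do not give the littermates' alleles at this step. NA10hd mice carried a NUP98-HOXA10HD fusion behind a LoxP-Stop-LoxP cassette at the ROSA26 locus, together with Vav-Cre. NV mice carried 1 Cre-dependent NrasG12D allele, also with Vav-Cre. Vav-Cre is active across the blood system rather than in HSC alone, so both mutant genotypes were present through hematopoiesis. The labels do not say whether the aliquots of a group came from separate mice. The figure legends of the study call them biological replicates but do not say which mice gave each aliquot. The errors and p-values below measure the spread between these aliquots, and how much of it is technical is not known.

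HSC arise in the embryo from hemogenic endothelium, and several surface proteins and transcription factors are shared by HSC and endothelial cells. Ramp2, Eng, Tek, Tie1 and Kdr are receptors or receptor partners that read adrenomedullin, BMP and TGF-beta ligands, angiopoietins and VEGF. Cldn5, Cdh5, Pecam1, Esam and Emcn are cell-surface proteins of vascular junctions, cell contacts and the glycocalyx. Esam, Eng and Tek are also known as surface markers of HSC.

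The libraries held 5464815 to 14283008 counts, and the median library held 10639180. Levels are given as CPM (counts scaled to the library total times its TMM factor) and, between genes, as RPKM (CPM per kilobase of exon). Of the 10 genes, 9 passed the filter on low counts in each of the 3 comparisons, and Cdh5 passed it in none. Xist and Y-linked counts were not evenly spread. Ctrl replicates 1 and 4 and NA10hd replicates 1, 2 and 3 had Y-linked counts without Xist, NA10hd replicate 4 had Xist without Y-linked counts, and the other 5 libraries, all 3 NV libraries among them, had both. Values between libraries of the same mix are given for some of the results that they changed.

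Marker genes were read to see which cells the libraries held. All 10 HSC markers read (Kit, Ly6a, Slamf1, Mecom, Hlf, Fgd5, Procr, Meis1, Ctnnal1 and Hoxb5) averaged more than 1 CPM, with sums of 1732 to 2214 CPM in Ctrl, 1880 to 2423 CPM in NA10hd and 1667 to 2000 CPM in NV. Of 14 defining endothelial markers, 11 averaged less than 1 CPM. Sox17 was at 0 counts in every library, Flt1, Lyve1, Aplnr, Mmrn2 and Sele did not exceed 1.35 CPM in any library, and the 3 markers above 1 CPM on average were Clec14a, Sox18 and Ptprb. The sum of the 14 markers ran from 21.1 to 54.9 CPM in Ctrl, from 37.2 to 55.8 CPM in NA10hd and from 11.3 to 15.6 CPM in NV, so it was lowest in NV, where several of the 10 genes were also lowest. Clec14a, an endothelial C-type lectin, had the largest difference in CPM of these markers, with 18.8 ± 10.8 CPM in Ctrl, 21.4 ± 9.33 CPM in NA10hd and 3.14 ± 3.58 CPM in NV (log2 fold change -2.61, SE 0.77, edgeR adjusted p = 0.075 in NV versus Ctrl), and its NV libraries did not overlap the others. None of the 4 or 5 endothelial markers that could be tested passed the test in any comparison, and 2 of them had an unadjusted p under 0.05 in NV versus Ctrl and in NA10hd versus NV, as had 19.5% of all genes in each. DESeq2 called Clec14a in NA10hd versus NV. The part of this marker sum in the results was not tested. In bulk RNA, fewer cells of a type and less RNA per cell cannot be told apart.

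In Ctrl HSC the 10 genes ran from abundant to nearly unread. On the RPKM scale the mean level was 53.4 ± 4.22 (SD, n = 4) for Esam, 46.3 ± 3.30 for Eng, 17.7 ± 2.10 for Tek, 17.6 ± 3.0 for Emcn and 15.7 ± 1.22 for Tie1. It was 6.39 ± 2.16 for Cldn5, 4.09 ± 3.15 for Pecam1, 3.67 ± 2.13 for Ramp2, 2.32 ± 0.628 for Kdr and 0.0719 ± 0.104 for Cdh5. The libraries of neighbouring genes in this order overlapped except at 3 steps, between Eng and Tek, between Tie1 and Cldn5 and between Kdr and Cdh5. Esam and Eng, which HSC sorts also use as surface markers, were thus at the top. Tek, another such marker, overlapped Emcn and Tie1. VE-cadherin (Cdh5), the defining adhesion protein of endothelial junctions, was at the bottom. The order was not the same in the mutants. In NA10hd the highest mean was that of Eng (69.3 ± 11.5 RPKM, n = 4), and Cldn5 (22.5 ± 14.8 RPKM) and Ramp2 (17.8 ± 4.78 RPKM) stood beside Tek (19.5 ± 2.43 RPKM) and Emcn (19.3 ± 4.93 RPKM). In NV the lowest detected means were those of Ramp2 (0.492 ± 0.0730 RPKM, n = 3) and Cldn5 (0.491 ± 0.227 RPKM).

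**Figure D1:**
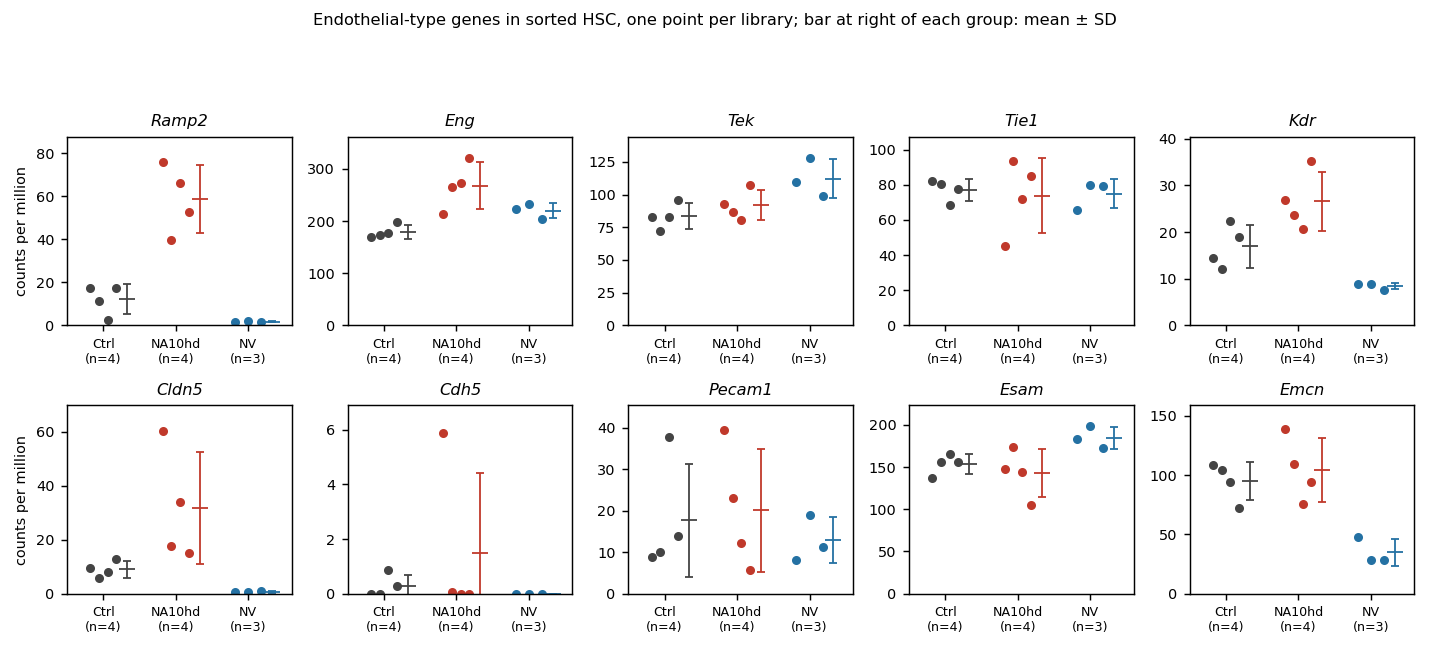
Level of each of the 10 genes in every library, in CPM on a linear axis from 0, with 4 Ctrl, 4 NA10hd and 3 NV libraries as points and the mean ± SD at the right of each group (bars that would pass below 0 are clipped there). Ramp2 lies between 39.7 and 75.9 CPM in NA10hd and between 1.43 and 1.89 CPM in NV, whereas the libraries of all 3 groups overlap for Tie1 and Pecam1.

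Ramp2 encodes receptor activity-modifying protein 2, which carries the calcitonin receptor-like receptor to the cell surface and makes it a receptor for adrenomedullin. It was 17.5, 11.3, 2.47 and 17.2 CPM in the 4 Ctrl libraries, 75.9, 39.7, 66.0 and 52.8 CPM in the 4 NA10hd libraries and 1.43, 1.89 and 1.55 CPM in the 3 NV libraries. The 3 groups did not overlap. Every NA10hd library was above, and every NV library below, all of the Ctrl libraries, and the lowest Ctrl library (replicate 3) came close to NV. The means were 12.1 ± 7.05, 58.6 ± 15.8 and 1.62 ± 0.241 CPM in Ctrl, NA10hd and NV. The log2 fold change was 2.30 (SE 0.46) in NA10hd versus Ctrl, -2.88 (SE 0.61) in NV versus Ctrl and 5.15 (SE 0.36) in NA10hd versus NV. Between libraries of the same Xist and Y-linked mix it was 1.80 in NA10hd versus Ctrl and -2.07 in NV versus Ctrl. The NV values rest on few reads, 18, 28 and 16 counts. The gene lies on chromosome 11, 101107342 to 101120860 on the plus strand of NCBIM37, and 1103 of its 3301 exonic bases (33.4%) are also exons of Vps25, which had 54 counts over all 11 libraries. How reads on shared bases were counted is not given in the sources used here. If none of the Ramp2 counts fell on them, over the other 2198 bases the Ctrl, NA10hd and NV means would be 5.51, 26.7 and 0.739 RPKM.

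Eng encodes endoglin, a co-receptor for BMP9 and other TGF-beta family ligands. Its level was 169, 173, 177 and 198 CPM in Ctrl, 213, 266, 273 and 321 CPM in NA10hd and 223, 233 and 204 CPM in NV. Both mutant groups lay wholly above Ctrl and overlapped each other. The log2 fold change was 0.59 (SE 0.16) in NA10hd versus Ctrl and 0.29 (SE 0.11) in NV versus Ctrl. Of its 3870 exonic bases, 185 (4.78%) are shared with Ak1 and Fpgs.

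Tek and Tie1 encode the angiopoietin receptor Tie2 and its related co-receptor. Tek ranged from 71.9 to 96.0 CPM in Ctrl, from 80.3 to 107 CPM in NA10hd and from 98.7 to 128 CPM in NV, so NV lay just above Ctrl with a log2 fold change of 0.42 (SE 0.15). In NA10hd its log2 fold change from Ctrl was 0.14 (SE 0.17), and -0.05 between libraries of the same Xist and Y-linked mix. Tie1 ranged from 68.5 to 82.1 CPM in Ctrl, from 45.0 to 93.3 CPM in NA10hd and from 65.8 to 80.1 CPM in NV. Its groups overlapped in all 3 comparisons, with log2 fold changes of -0.05 (SE 0.22), -0.04 (SE 0.14) and -0.03 (SE 0.25) in NA10hd versus Ctrl, NV versus Ctrl and NA10hd versus NV. With single libraries left out these ran from -0.19 to 0.12, from -0.10 to 0.04 and from -0.15 to 0.15.

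Kdr encodes VEGF receptor 2, the main signalling receptor for VEGF-A. It was 14.5, 12.03, 22.3 and 18.8 CPM in Ctrl, 26.8, 23.5, 20.6 and 35.3 CPM in NA10hd and 8.75, 8.80 and 7.63 CPM in NV. All NV libraries were below all Ctrl and all NA10hd libraries, and NA10hd and Ctrl overlapped. The log2 fold change was 0.65 (SE 0.30) in NA10hd versus Ctrl, -1.02 (SE 0.29) in NV versus Ctrl and 1.65 (SE 0.34) in NA10hd versus NV.

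Cldn5 encodes claudin-5, a tight junction protein of the blood-brain barrier and other vessels. It was 9.66, 5.68, 7.89 and 12.9 CPM in Ctrl, 60.5, 17.7, 34.1 and 14.9 CPM in NA10hd and 0.477, 0.541 and 1.06 CPM in NV. As with Ramp2, the groups did not overlap, with NA10hd highest and NV lowest. The spread within NA10hd was wide, from replicate 4 at 14.9 CPM to replicate 1 at 60.5 CPM. The log2 fold change was 1.82 (SE 0.45) in NA10hd versus Ctrl, and 1.32 without NA10hd replicate 1. It was -3.71 (SE 0.54) in NV versus Ctrl and 5.51 (SE 0.66) in NA10hd versus NV. The NV libraries held 6, 8 and 11 counts.

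Emcn encodes endomucin, a sialomucin of venous and capillary endothelium that is also found on HSC. Its level was 109, 104, 94.4 and 72.4 CPM in Ctrl, 139, 109, 75.6 and 94.0 CPM in NA10hd and 48.0, 28.5 and 28.2 CPM in NV. NA10hd and Ctrl overlapped widely, and all 3 NV libraries were below every other library. The log2 fold change was 0.14 (SE 0.21) in NA10hd versus Ctrl (-0.02 without NA10hd replicate 1), -1.45 (SE 0.22) in NV versus Ctrl and 1.57 (SE 0.28) in NA10hd versus NV. Emcn had the lower level in NV at a much higher count than Ramp2 or Cldn5, with 603, 421 and 292 counts in the NV libraries.

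Cdh5, which encodes VE-cadherin, was all but unread. Its counts were 0, 0, 11 and 2 in Ctrl, 48, 1, 0 and 0 in NA10hd and 0, 0 and 0 in NV. Nearly all of its counts came from 1 Ctrl and 1 NA10hd library, at 0.877 and 5.90 CPM. The 0 counts in NV allow a level of up to 0.0820 CPM (3 counts over the 3 libraries, counting error only).

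Pecam1 encodes CD31, an adhesion molecule of endothelium, platelets and leukocytes. It was 8.94, 10.04, 37.8 and 13.9 CPM in Ctrl, 39.4, 23.1, 12.1 and 5.68 CPM in NA10hd and 8.20, 19.0 and 11.3 CPM in NV. The 3 groups overlapped, and Ctrl replicate 3 and NA10hd replicate 1, the libraries that held most Cdh5 counts, were also the highest for Pecam1. Its log2 fold changes, 0.18 (SE 0.57) in NA10hd versus Ctrl and -0.48 (SE 0.48) in NV versus Ctrl, moved to 0.87 and 0.22 without Ctrl replicate 3, and the first to -0.36 without NA10hd replicate 1. Over the 7 other settings, libraries of the same Xist and Y-linked mix among them, Pecam1 ran from 0.01 to 1.11 and from -0.90 to -0.32. Esam encodes an adhesion molecule of endothelial tight junctions and platelets. It ranged from 136 to 165 CPM in Ctrl, from 105 to 174 CPM in NA10hd and from 172 to 198 CPM in NV. NV was above Ctrl in all 3 libraries with a log2 fold change of 0.26 (SE 0.12), and NA10hd overlapped both groups, with a log2 fold change from Ctrl of -0.10 (SE 0.17) that turned to 0.03 without NA10hd replicate 4 and to 0.09 between libraries of the same Xist and Y-linked mix.

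**Figure D2:**
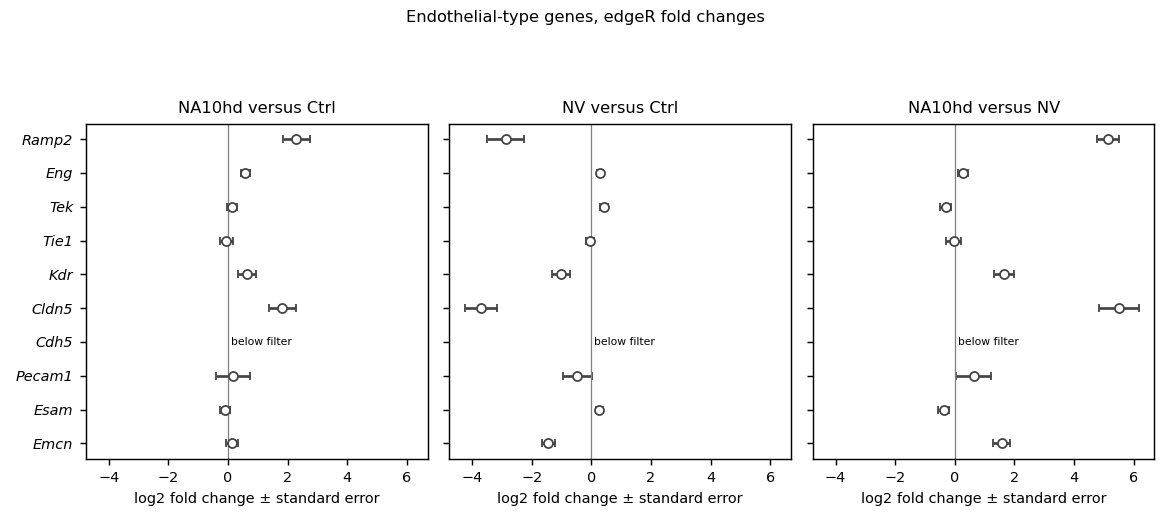
Log2 fold change of the 10 genes with its standard error in NA10hd versus Ctrl, NV versus Ctrl and NA10hd versus NV, on 1 shared axis and Cdh5 marked as below the filter. Ramp2 and Cldn5 lie farthest from 0 in each panel, at 5.15 and 5.51 in NA10hd versus NV, while Tie1 lies between -0.05 and -0.03 in all 3.

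Set against all genes, with a call meaning over 1.5-fold at an edgeR adjusted p below 0.05, none of the 9 was called in NA10hd versus Ctrl, where 0.00766% of 13060 genes were called. With an unadjusted p under 0.05 there were 3, against 11.9% of all genes, DESeq2 called 2 (Cldn5 and Ramp2, against 1.7% of genes by DESeq2) and limma-voom called 0. In NV versus Ctrl 3 were called (Cldn5, Emcn and Ramp2, all lower in NV), against 4.76% of 13462 genes in either direction (2.21% lower and 2.55% higher in NV), and DESeq2 called Kdr as well, against 6.98% of genes. In NA10hd versus NV 4 were called (Cldn5, Emcn, Kdr and Ramp2, all higher in NA10hd), against 5.08% of 13461 genes in either direction (2.3% higher and 2.79% lower in NA10hd), and DESeq2 called the same 4, against 10.1% of genes. These counts describe genes chosen with such results known and are read no further. The libraries of the groups did not overlap for 3 of the 9 genes in NA10hd versus Ctrl, 7 in NV versus Ctrl and 4 in NA10hd versus NV, against 7.82%, 18.9% and 21% of all genes tested. The median log2 fold change of the 9 was 0.18, -0.48 and 0.64 in the same order, beside 0.02, -0.01 and 0.01 over all genes. In each comparison the gene at the median was Pecam1, whose groups overlapped. With single libraries left out the median ran from 0.13 (without NA10hd replicate 1) to 0.58 (without Ctrl replicate 3) in NA10hd versus Ctrl, from -0.88 (without NV replicate 2) to -0.10 (without Ctrl replicate 3) in NV versus Ctrl, and from 0.38 (without NA10hd replicate 1) to 1.03 (without NV replicate 2) in NA10hd versus NV. The first and second comparisons share the Ctrl libraries, and the third does not use them.

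Some of these calls were lost when 1 library was left out, while the fold changes kept their sign. With each library left out in turn, Ramp2 in NV versus Ctrl was called in 2 of 7 fits, being lost without Ctrl replicate 1 or 4 or any NV library, with log2 fold changes of -3.23 to -2.65 over the 7. It was also called in 4 of 7 other settings, and not with limma-voom, with a replicate block or between libraries of the same Xist and Y-linked mix. In NA10hd versus NV, Kdr was lost without any 1 of the NV libraries and Emcn without NV replicate 2 or 3, with log2 fold changes of at least 1.49 and 1.41.

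Promoter sequence was available for 6 of the 10 genes from RefSeq on GRCm38.p6, a later build than that of the counts. Shown are the 250 bases before the annotated start of the 3 genes that were higher in NA10hd than in NV and had an entry (Cldn5, Emcn and Kdr), and of Tek, whose libraries overlapped in that comparison. Each is read 5′ to 3′ in the direction of the gene, and capitals mark the core GGAA, or TTCC on the other strand, that ETS family factors such as Erg and Fli1 recognise. The Cldn5 sequence is chr16:18776597-18776846 on the plus strand, the Emcn sequence chr3:137340828-137341077 on the plus strand, the Kdr sequence chr5:75978456-75978705 on the minus strand and the Tek sequence chr4:94739039-94739288 on the plus strand.
Cldn5: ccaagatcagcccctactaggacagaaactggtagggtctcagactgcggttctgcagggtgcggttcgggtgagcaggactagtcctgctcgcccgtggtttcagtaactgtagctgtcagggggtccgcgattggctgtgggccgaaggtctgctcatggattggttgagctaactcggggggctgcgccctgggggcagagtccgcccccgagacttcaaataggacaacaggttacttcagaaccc
Emcn: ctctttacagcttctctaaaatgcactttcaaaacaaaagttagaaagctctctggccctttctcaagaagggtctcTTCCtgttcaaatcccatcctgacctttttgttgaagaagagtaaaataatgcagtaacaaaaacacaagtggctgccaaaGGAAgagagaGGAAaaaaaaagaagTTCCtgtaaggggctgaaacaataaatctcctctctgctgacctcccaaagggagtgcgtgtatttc
Kdr: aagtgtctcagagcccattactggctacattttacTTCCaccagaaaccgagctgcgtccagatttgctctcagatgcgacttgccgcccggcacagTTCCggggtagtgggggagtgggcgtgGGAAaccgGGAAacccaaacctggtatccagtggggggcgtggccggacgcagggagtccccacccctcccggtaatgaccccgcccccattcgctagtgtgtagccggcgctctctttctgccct
Tek: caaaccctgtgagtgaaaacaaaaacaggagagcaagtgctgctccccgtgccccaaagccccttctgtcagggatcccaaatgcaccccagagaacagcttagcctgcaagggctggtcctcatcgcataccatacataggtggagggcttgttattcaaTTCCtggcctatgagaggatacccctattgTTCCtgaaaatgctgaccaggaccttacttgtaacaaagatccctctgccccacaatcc

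The GGAA core was found 0 times before Cldn5, 4 times before Emcn, 4 times before Kdr and 2 times before Tek, counted on both strands, and 7 times before Tie1 and 3 times before Eng. It is a short motif, held by 93.4% of the 32851 RefSeq promoters of this length with a median of 3 matches, and 7 or more were held by 3.82%. Tie1 had the most matches of the 6 and Cldn5 had none, and no link between matches and levels was tested. The longer form CCGGAA, which contains the core, was found once before Kdr (12% of promoters hold it) and not before the other 5. The GATA motif AGATAA (9.99% of promoters) was found in none of the 6, and TTTATNG, the motif of posterior Hox factors (9.81%), once before Emcn. These are letter matches, not binding sites.

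The genes that act with these 10 were read from a list of 72, of which 51, 53 and 54 could be tested in NA10hd versus Ctrl, NV versus Ctrl and NA10hd versus NV. In NA10hd versus Ctrl edgeR called none of the 51 and 14 had an unadjusted p under 0.05 (11.9% of all genes had), while DESeq2 called 1 (Procr, beside 1.7% of all genes) and limma-voom 0. In NV versus Ctrl 4 of 53 fell (Vwf, Procr, Erg and Jam3) and none rose, beside 4.76% called of all genes. In NA10hd versus NV 5 of 54 were higher in NA10hd (Procr, Jam2, Vwf, Erg and Adgrl4) and none lower, beside 5.08%. The median log2 fold change of those tested was 0.14, -0.17 and 0.30, beside the medians over all genes given above. Since the list was chosen with earlier results known, these counts and medians are a description.

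For the adrenomedullin axis, the receptor and its partners were read but not the ligand. Adm, which encodes adrenomedullin, was at 0 counts in every library, and Adm2 and Calca did not exceed 0.483 CPM in any. Calcrl, the receptor that Ramp2 carries to the surface, was 119, 57.1, 61.5 and 112 CPM in Ctrl, 114, 106, 122 and 51.1 CPM in NA10hd and 44.8, 41.1 and 56.1 CPM in NV. All NV libraries were below all Ctrl libraries, but neither the log2 fold change of -0.88 (SE 0.26, edgeR adjusted p = 0.076) in NV versus Ctrl nor that of 1.05 (SE 0.29, edgeR adjusted p = 0.0644) in NA10hd versus NV passed the test. The latter was called in 5 of 6 other settings, with log2 fold changes of 1.04 to 1.27 over the 6, and the former in 2 of 7 (DESeq2 and no filter on low counts), with -0.33 between libraries of the same Xist and Y-linked mix. With single libraries left out, the latter was called in 1 of 7 fits (log2 fold changes of 0.92 to 1.27, edgeR adjusted p up to 0.255) and the former in 2 of 7 (-1.04 to -0.70). On the RPKM scale Ramp1, the partner that makes Calcrl a receptor for CGRP, was above Ramp2 in every group, with 86.5 ± 22.1 in Ctrl, 119 ± 47.7 in NA10hd and 79.4 ± 4.45 in NV. Ramp1 did not pass the test in any comparison. Ramp3 had 110 counts in NA10hd replicate 4, at 15.6 CPM, and at most 0.87 CPM elsewhere.

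**Figure D3:**
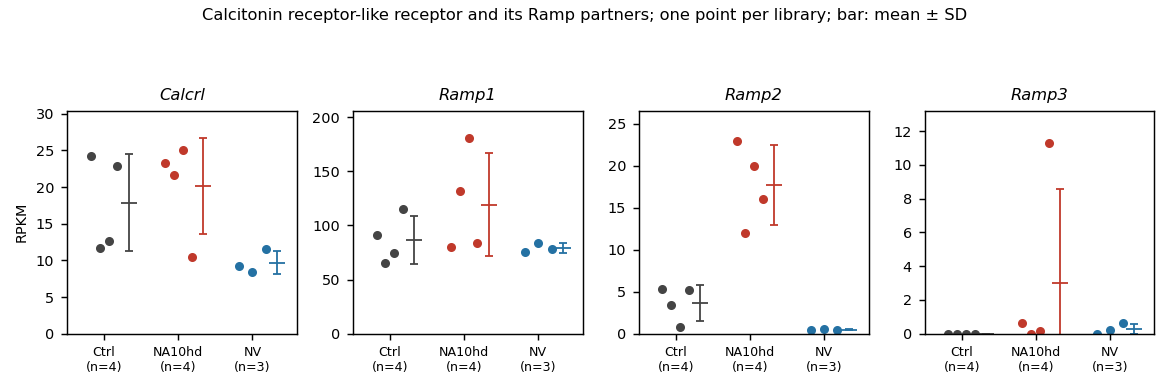
RPKM of Calcrl and its 3 Ramp partners in every library, on separate linear axes from 0, with the mean ± SD at the right of each group (bars clipped at 0). Ramp1 is at 65.2 RPKM or above in all 11 libraries, whereas the Ramp2 libraries of the 3 groups stand apart and Ramp3 is seen mainly in 1 NA10hd library.

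Among the angiopoietin genes, Angpt1, the activating ligand of Tie2, was itself abundant at 661 ± 85.5 CPM in Ctrl, 514 ± 86.4 CPM in NA10hd and 630 ± 44.2 CPM in NV. Its log2 fold change of -0.36 (SE 0.16) in NA10hd versus Ctrl did not pass the test (edgeR adjusted p = 0.385). Angpt2 did not exceed 0.541 CPM, Angpt4 was at 0 counts and Ptprb, the phosphatase that acts on Tie2, did not exceed 6.08 CPM. Of the 9 listed VEGF genes other than Kdr, 3 or 4 could be tested in each comparison, and none of these was called. Vegfa was 6.15 ± 1.98 CPM in Ctrl, 17.5 ± 18.5 CPM in NA10hd and 7.43 ± 3.99 CPM in NV, and the NA10hd mean included 44.9 CPM in replicate 4. Flt1, VEGF receptor 1, had counts in 2 libraries only, Nrp1 in 1, and Vegfd in none. The BMP and TGF-beta genes likewise had 0 calls of 10 or 11 tested. For lists of this size both results are near the share over all genes. That share was 0.00766%, 4.76% and 5.08% in NA10hd versus Ctrl, NV versus Ctrl and NA10hd versus NV. Acvrl1, the ALK1 receptor that pairs with endoglin, did not exceed 0.955 CPM in any library, Gdf2 and Bmp10, its ligands, were at 0 counts, and Tgfbr2 was 82.8 ± 13.2, 82.1 ± 22.6 and 84.1 ± 9.06 CPM in Ctrl, NA10hd and NV.

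Of the 12 junction and adhesion partners, all tested, 1 was called lower in NV versus Ctrl (2.21% of all genes were) and 1 higher in NA10hd versus NV (2.3%). Jam3, a junctional adhesion molecule, fell from 68.5 ± 4.22 CPM in Ctrl to 41.4 ± 12.2 CPM in NV (log2 fold change -0.73, SE 0.19, edgeR adjusted p = 0.0484). Jam2, which binds Jam3, was 75.5 ± 25.8 CPM in NA10hd and 21.1 ± 3.67 CPM in NV (log2 fold change 1.83, SE 0.30, edgeR adjusted p = 0.00625). Cd34, a sialomucin of endothelium and progenitors, was 116 ± 15.9, 127 ± 20.8 and 126 ± 16.4 CPM in Ctrl, NA10hd and NV and did not pass in any comparison.

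Of the 12 transcription factors, 11 were tested and Erg was called in 2 comparisons, lower in NV versus Ctrl (2.21% of all genes were) and higher in NA10hd versus NV (2.3%). Erg, an ETS factor needed in both HSC and endothelium, was 114, 69.2, 86.7 and 99.9 CPM in Ctrl, 148, 97.5, 79.9 and 101 CPM in NA10hd and 55.4, 50.8 and 57.3 CPM in NV. All NV libraries were below all others. It fell in NV versus Ctrl (log2 fold change -0.77, SE 0.18, edgeR adjusted p = 0.0253) and was higher in NA10hd than in NV (0.96, SE 0.23, edgeR adjusted p = 0.0359). Its relative Fli1 was 110.1 ± 33.7, 102 ± 36.3 and 123 ± 8.43 CPM in Ctrl, NA10hd and NV, with overlapping groups. Gata2, Tal1 and Lmo2, factors of the blood and endothelial programme, were not called in any comparison. Gata2 had the largest log2 fold change of the 3, with 381 ± 24.7 CPM in Ctrl against 525 ± 77.8 CPM in NA10hd (0.47, SE 0.14, edgeR adjusted p = 0.28).

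Of the remaining 15 genes of endothelial type, 2 of 11 tested were called lower in NV versus Ctrl, beside 2.21% of all genes, and 3 of 12 higher in NA10hd versus NV, beside 2.3%. Procr, the endothelial protein C receptor and an HSC marker, was 139, 128, 124 and 136 CPM in Ctrl, 273, 189, 223 and 166 CPM in NA10hd and 79.6, 90.6 and 69.3 CPM in NV. The 3 groups did not overlap, in the order seen for Ramp2 and Cldn5. It fell in NV versus Ctrl (log2 fold change -0.72, SE 0.13, edgeR adjusted p = 0.0087) and was higher in NA10hd than in NV (1.41, SE 0.21, edgeR adjusted p = 0.00379), and its 0.70 (SE 0.17) in NA10hd versus Ctrl had an edgeR adjusted p of 0.201 and a DESeq2 adjusted p of 0.0158. Vwf, von Willebrand factor of endothelium and platelets, was 220 ± 14.7 CPM in Ctrl, 251 ± 49.1 CPM in NA10hd and 124 ± 27.3 CPM in NV. It fell in NV versus Ctrl (log2 fold change -0.83, SE 0.15, edgeR adjusted p = 0.0079) and was higher in NA10hd than in NV (1.01, SE 0.22, edgeR adjusted p = 0.0232). Adgrl4, an endothelial adhesion receptor, was higher in NA10hd than in NV (0.77, SE 0.19, edgeR adjusted p = 0.0422), and its -0.52 (SE 0.13) in NV versus Ctrl was under the fold threshold.

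**Figure D4:**
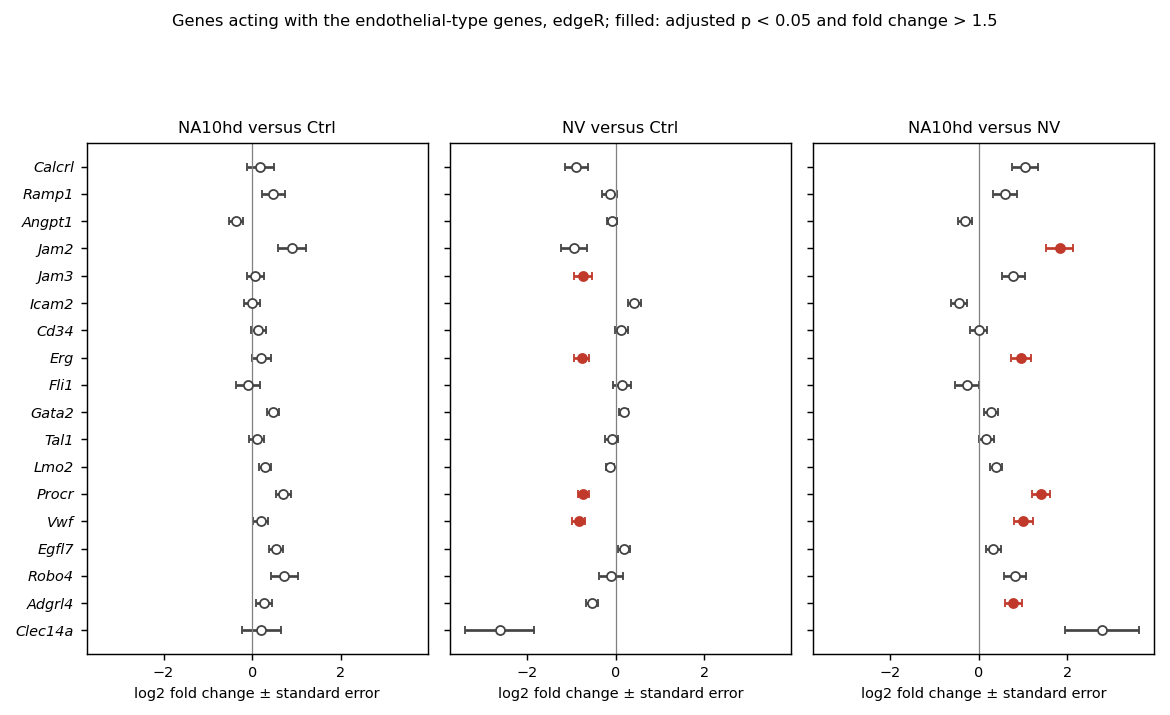
Log2 fold change with its standard error for 18 of the genes that act with the 10 or mark the same cells, in the same 3 comparisons, with filled points for those past an edgeR adjusted p of 0.05 and a 1.5-fold difference. No point is filled in NA10hd versus Ctrl, 4 are filled below 0 in NV versus Ctrl (Jam3, Erg, Procr and Vwf) and 5 above 0 in NA10hd versus NV (Jam2, Erg, Procr, Vwf and Adgrl4).

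Procr in NA10hd versus NV and Vwf in NV versus Ctrl were called with each library left out in turn, and Procr in NV versus Ctrl was lost without NV replicate 3 alone (adjusted p = 0.0568 by edgeR). In NA10hd versus NV, Jam2 was lost without NV replicate 2 or 3, and Vwf, Erg and Adgrl4 without any 1 of the NV libraries. In NV versus Ctrl, Erg was called in 2 of 7 such fits, being lost without Ctrl replicate 1 or 4 or any NV library, and Jam3 in 1 of 7, that without NV replicate 1. Between the 2 Ctrl and 3 NV libraries with both Xist and Y-linked counts, Procr, Vwf, Erg and Jam3 had log2 fold changes of -0.66, -0.76, -0.52 and -0.79 with edgeR adjusted p of 0.0784, 0.0746, 0.189 and 0.14, and none of the 4 was called.

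Markers of other blood cells also differed in NV. The 8 megakaryocyte markers summed to 158 to 243 CPM in Ctrl, 112 to 238 CPM in NA10hd and 262 to 549 CPM in NV, and 4 of them rose in NV versus Ctrl, Itga2b, Pf4, Ppbp and Treml1, where 2.55% of all genes were called higher. Pf4, platelet factor 4, had the largest log2 fold change of these, 2.91 (SE 0.34, edgeR adjusted p = 0.00091). Platelets and megakaryocytes also use Vwf, Pecam1 and Esam. The 7 erythroid markers summed to 19.5 to 25.3 CPM in Ctrl, 18.3 to 32.3 CPM in NA10hd and 42.6 to 82.2 CPM in NV, with Epor and Klf1, the 2 that could be tested, called higher in NV than in Ctrl. The 8 stromal markers summed to 3.87 to 26.1 CPM over all libraries, the 8 lymphoid markers to 39.6 to 104 CPM and the 8 myeloid markers to 244 to 548 CPM. In the lymphoid and the myeloid list 7 of 8 markers averaged less than 1 CPM, and the sums were nearly all Cd79b (means of 53.8, 70.0 and 44.5 CPM in Ctrl, NA10hd and NV) and Prtn3 (means of 338, 451 and 267 CPM). Against Ctrl, only 2 stromal, 1 lymphoid and 1 myeloid marker could be tested in either mutant, and none was called. Prtn3 was called higher in NA10hd than in NV, where 2, 1 and 2 of these markers could be tested. Of the 10 HSC markers, Fgd5 and Procr fell and Ly6a rose in NV versus Ctrl, beside 2.21% and 2.55% of all genes, and Fgd5, Hlf, Hoxb5 and Procr were higher in NA10hd than in NV, beside 2.3%. The part of these marker genes in the results for the 10 genes was not tested.

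The genes whose pattern over the 11 libraries was most like the mean of the 10 were sought among 13259 tested genes by Pearson's r of log2 CPM. The 5 with the highest r were Procr (0.959), Vdr (0.955), Fam54b (0.950), Bex1 (0.943) and Snn (0.942), the points sharing their group structure and sequencing libraries. All 5 had a higher mean in NA10hd and a lower mean in NV than in Ctrl, an order that the search itself selects for. The mean of the 10 was not the pattern of each. In NA10hd versus NV, 6 of the 9 tested had log2 fold changes above 0 and 3 below. Ramp2 and Cldn5 were at 5.15 and 5.51, and Tie1, Tek and Esam at -0.03, -0.30 and -0.37. Vdr, the vitamin D receptor, was 64.2 ± 9.50 CPM in Ctrl, 82.0 ± 23.1 CPM in NA10hd and 30.6 ± 4.21 CPM in NV.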

How the data were processed

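Counts of 11 libraries of sorted HSC were analysed. Per the labels and methods, the authors aligned reads to NCBIM37 with HISAT2, counted them per gene with featureCounts and deposited raw counts, not normalized. Tool versions, annotation release and strand setting are not given in the sources used here. Groups came from the labelled genotype. Symbols, exons and positions came from GENCODE on NCBIM37 and matched 37205 IDs (786 had none). How reads on exons shared by genes were counted is not given there.

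CPM used TMM-scaled totals and RPKM the union of exons. Each comparison was fitted on its own libraries with edgeR 4.0.16 in R 4.3.3 (default filter on low counts, quasi-likelihood test, Benjamini-Hochberg adjustment over all genes tested). A call was an adjusted p under 0.05 with a fold change above 1.5. SE was derived from the log2 fold change and the test statistic. The scripts were tested on simulated data. Limits from 0 counts used 3 counts and cover counting error only, since copies of a molecule are not independent. The methods used DESeq2, tried here as an alternative, since quasi-likelihood was preferred for counts.

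The 10 genes, the list of 72 genes and the marker lists (HSC, endothelial, stromal, megakaryocyte, erythroid, myeloid, lymphoid) came from general knowledge and were chosen with earlier results of these data known. Named were the 10, listed genes called in a comparison, 16 direct partners, the 5 genes of most like pattern with a mean of at least 1 CPM, and markers needed to check the cells. 1 HSC marker is not reported here. Vps25, Ramp1, Ramp3 and other genes given only by level were named after their values were seen. Alternatives were DESeq2 1.42.0, limma-voom (limma 3.58.1), DESeq2 size factors, no filter, 1 fit of all groups, a replicate block, libraries of 1 Xist and Y-linked mix and each library left out. Figures used matplotlib 3.10.9.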

Additional observations from a re-analysis of the deposited data

Results flagged for a closer look

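In groups of 4 libraries, 67 combinations of gene and group were checked for 1 library far from the others (a gap to the nearest library, as a share of the group's range, above Dixon's critical value), and 8 met this. Chance alone gives about 1 in 20. The NV group, with 3 libraries, was not checked.

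Cdh5 was 5.90 CPM in NA10hd replicate 1, against 0 to 0.0796 CPM in the other 3 libraries. Pecam1 was 37.8 CPM in Ctrl replicate 3, against 8.94 to 13.9 CPM. Flt1 was 1.28 CPM in Ctrl replicate 3 (16 counts) and 0.737 CPM in NA10hd replicate 1 (6 counts), with 0 in the other libraries of both groups. These 3 genes thus had single high libraries among the same 2, Ctrl replicate 3 and NA10hd replicate 1. The sum of the 14 endothelial markers was not raised in these libraries. It was 21.1 CPM in Ctrl replicate 3, the lowest of Ctrl. In NA10hd replicate 1 it was 43.75 CPM, within the NA10hd range of 37.2 to 55.8 CPM.

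Gata2 was 641 CPM in NA10hd replicate 1, against 479 to 499 CPM, and Vdr was 117 CPM there, against 68.1 to 72.2 CPM. Ramp3 was 15.6 CPM in NA10hd replicate 4 (110 counts), against 0 to 0.860 CPM. Tgfbr2 was 102 CPM in Ctrl replicate 4, against 75.4 to 77.8 CPM. No cause was tested for any of these.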

How the results depend on the processing

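Of the 10 genes, DESeq2 called 2 in NA10hd versus Ctrl and a single fit of all 3 groups called 1, against 0. In NA10hd versus NV leaving out libraries gave 2 to 4 calls. For the 72 listed genes, DESeq2 called 1 in NA10hd versus Ctrl. In NV versus Ctrl the single fit called 1 and libraries with both Xist and Y-linked counts called 2 (Id1 and Jam2, neither called above in this comparison), and leaving out libraries gave 2 to 5, against 4. In NA10hd versus NV, DESeq2 called 10 and the single fit 8, and leaving out libraries gave 1 to 7, against 5. Apart from the replicate block, other settings kept these counts within 1.5-fold.

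Replicate numbers were fitted as a block too. Libraries with the same number did not deviate together (r from -0.087 to 0.026 over 10 pairs), so the numbers name libraries and do not pair them. With the replicate block, 2 listed genes were called in NV versus Ctrl and 3 in NA10hd versus NV, and 2 of the 10 genes in NV versus Ctrl (Cldn5 and Emcn).

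Jam3 (0.07 on the log2 scale in NA10hd versus Ctrl) ranged from -0.04, without NA10hd replicate 3, to 0.2 with libraries left out and up to 0.26 under other settings, and Calcrl turned from 0.18 to -0.01 between libraries of the same Xist and Y-linked mix. The cause was not tested. NA10hd versus NV had no such libraries to compare. RPKM over exonic bases that no other gene shares was chosen after seeing the data and moved the NA10hd and NV means of Ramp2, and no mean of Eng, by more than 1 SD. Each setting was fitted across all genes, and fold changes were compared between settings for 9 of the 10 genes (Cdh5 was below the filter), listed genes called, partners and genes of like pattern. For Clec14a and Id1, outside these, only a call under another setting is given. Turns of sign among the 9 (Tie1, Tek, Pecam1, Esam and Emcn) are given beside their values. With 3 or 4 libraries a group and at most 28 counts for Ramp2 and 11 for Cldn5 in any NV library, their NV levels are imprecise.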
